A study of Saccharomyces cerevisiae with 8 samples.

Results

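Budding yeast growing on glucose was given carnitine, and its transcript levels were compared with those of untreated cultures. The comparison sets the 2 carnitine arrays against the 2 control arrays of an 8-array series and covers every Saccharomyces cerevisiae gene that has a probe set of its own. That gave 5449 genes, of which 5324 lay above the signal floor and were tested. The floor was set on probe sets for fission yeast, whose RNA was not in the samples, at the 95th percentile of their mean log2 signals.

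All cultures were of BY4742, a haploid laboratory strain recorded as MATa his3 leu2 lys2 ura3, in synthetic complete dextrose medium. The carnitine cultures received carnitine only, and the control cultures received neither carnitine nor peroxide. The series also has a pair of arrays from cultures given carnitine with peroxide and a pair given peroxide alone, both with 0.4 mM hydrogen peroxide for 30 min. The carnitine concentration is recorded as 100 mg/L in one place and 1000 mg/L in another, and the records do not settle which was used. Each group has 2 arrays, labelled as biological replicates, and the labels do not say whether same-numbered cultures of different groups were paired.

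Carnitine is a quaternary amine that carries acetyl and longer acyl groups across membranes as acylcarnitines. S. cerevisiae does not make it and takes it up from the medium, partly through Agp2, a plasma membrane permease. Inside the cell the carnitine acetyltransferases Cat2, Yat1 and Yat2 load it with acetyl groups, and the carrier Crc1 takes acetylcarnitine into mitochondria, a route used mainly when cells live on non-fermentable carbon and largely repressed on glucose.

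Signals are linear array intensities as deposited, and ran from 3.20 to 79918 over all probe sets. Medians of the tested genes were 3044 and 3078 on the carnitine arrays and 3062 and 3059 on the control arrays. The median gap of a gene between replicates, in absolute log2 units, was 0.0904 in the carnitine group and 0.0898 in the control group. The α-cell genes MF(ALPHA)1 and STE3 read 46478 to 51980 and 16046 to 27503 over the 8 arrays. The a-cell genes MFA2, AGA2 and BAR1 read 5.48 to 14.8, 5.6 to 13.2 and 10.2 to 16.9. MFA1 and STE2, also a-cell genes, were higher, at 82.0 to 166 and 84.3 to 241, yet far below both α-cell genes. These levels go against the recorded mating type and fit the strain name. Of the genes recorded as mutant, LEU2, LYS2 and URA3 read between 3.87 and 4.09, while HIS3 read 10505 to 17056, so its transcript was detected on all 8 arrays; which part of each gene is altered is not stated. No hybridisation or scan batch is given in the labels.

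Few genes were called as changed with carnitine. Of the 5324 genes, 80 (1.5%) passed the test, which was limma's moderated test on log2 signals with a Benjamini-Hochberg adjusted p below 0.05 over all genes. Of these, 25 rose (0.47% of the genes tested) and 55 fell (1.03%). Counts for gene lists below compare with these shares, though the lists were chosen with earlier results of these data known. An unadjusted p below 0.05 was reached by 772 genes (14.5%). The median change of all genes was -0.0011 and their median absolute change 0.0888, in log2 units as are all changes below. Rises ran from 0.25 to 1.56 and falls from 0.34 to 2.46, so that 7 rises and 15 falls reached 2-fold while 5 rises and 18 falls stayed below 1.5-fold. Changes are relative to the overall signal of the array, so the amount of RNA per cell is not measured. Scaling to poly-A spikes, bacterial transcripts added to the RNA, moved the median of all genes to 0.08 and gave 48 rises and 59 falls. Scaling to the hybridisation spikes moved it to 0.19 and gave 75 rises and 41 falls, so the excess of falls depends on the scaling. Each of the 80 genes kept its direction in every setting in which it was fitted. Spike scaling could not have turned one, because the smallest called change, 0.25, exceeds both shifts. Leaving out 1 array could not either, because the arrays of the 2 groups do not overlap for any called gene.

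**Figure D1:**
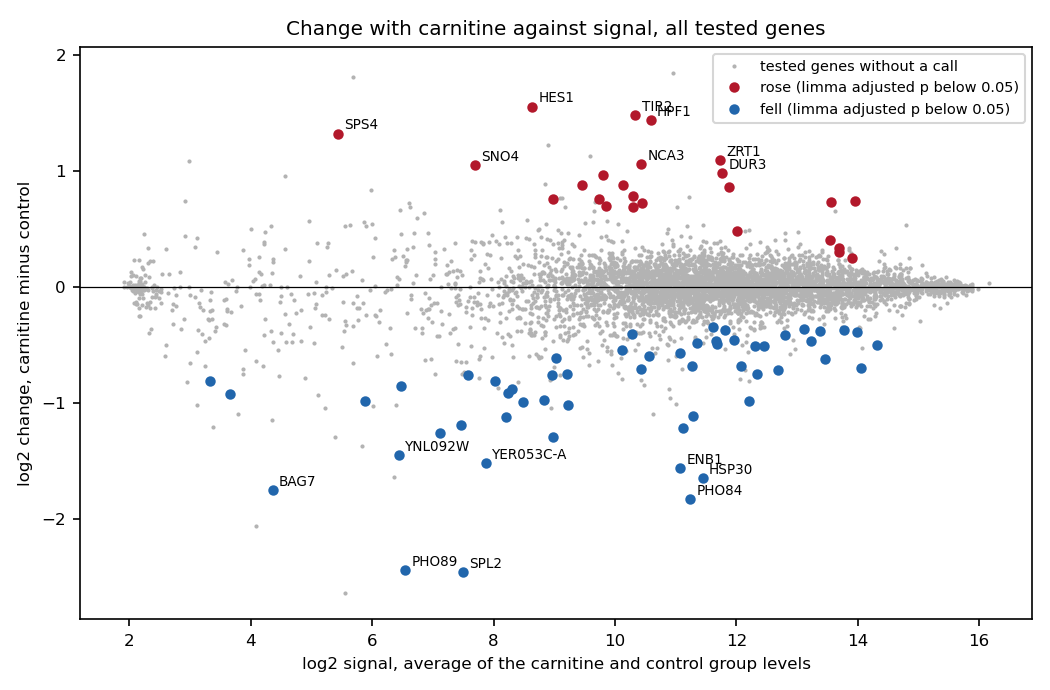
Each point is one of the 5324 tested genes, with its log2 signal on the x axis and its log2 change, carnitine minus control, on the y axis. The 25 genes that rose and the 55 that fell are coloured, with SPL2 and PHO89 lowest among the called genes and HES1 highest. Some grey points lie further from zero, such as MGA1 at -2.64 and DAN1 at 1.85, because a call also depends on the spread of the replicates.

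The calls rest on few arrays, and most are sensitive to any one of them. Leaving out 1 array gave 24 calls without carnitine replicate 1, 25 without carnitine replicate 2, 17 without control replicate 1 and 53 without control replicate 2. The call of 8 genes held in all 4 of these fits: SPL2, PHO84, FRE1, HSP42 and YNL092W among the falls, and TIR2, SPS4 and YGP1 among the rises. All but FRE1 and HSP42 of these also passed in the fit to the 4 carnitine and control arrays alone, which called 15 genes. A further 20 genes changed by 2-fold or more without passing. Among them, picked after their values were seen for the size of their change, MGA1, a gene related to heat shock factors, read 19.3 and 16.6 in the carnitine cultures against 171 and 73.0 in the control cultures (adjusted p = 0.0769), and DAN1, a wall mannoprotein gene of anaerobic cells, read 3961 and 3525 against 851 and 1272 (adjusted p = 0.0748).

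Genes for phosphate uptake gave the deepest falls among the called genes. SPL2 (YHR136C), whose product regulates phosphate transport, read 74.1 and 78.6 in the carnitine cultures against 349 and 503 in the control cultures. PHO84 (YML123C), the high-affinity proton-coupled phosphate transporter, which also carries manganese, read 1081 and 1492 against 4171 and 4905. PHO89 (YBR296C), the sodium-coupled phosphate transporter, read 50.3 and 29.0 against 144 and 297. In all 3 genes both carnitine cultures lay far below both control cultures, with control replicate 2 the highest. The changes were -2.46 ± 0.23 for SPL2 (adjusted p = 0.00688), -1.83 ± 0.17 for PHO84 (adjusted p = 0.00688) and -2.44 ± 0.38 for PHO89 (adjusted p = 0.0301), or 5.49-fold, 3.56-fold and 5.42-fold lower. SPL2 and PHO84 passed in all 11 alternative fits run for single genes. PHO89 lost its call without carnitine replicate 1, carnitine replicate 2 or control replicate 2, with changes of -2.96 to -1.92 and an adjusted p of up to 0.160. PIC2 (YER053C), a mitochondrial carrier of phosphate and copper, also fell, to 3721 and 4195 against 7619 and 5829 in control (-0.75 ± 0.13, adjusted p = 0.0379), and did not pass without carnitine replicate 1, carnitine replicate 2 or control replicate 1 (up to 0.154).

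The rest of the phosphate genes did not follow as a group. Of 21 tested genes for phosphate uptake and storage, 3 fell, against 1.03% of all genes tested, none rose and 18 did not pass. The list's median was -0.061 and turned to 0.017 with poly-A and 0.13 with hybridisation scaling. Secreted acid phosphatases differed among themselves: PHO11 read 784 and 893 in carnitine cultures against 1298 and 1619.8 in control cultures (-0.79 ± 0.15, adjusted p = 0.0524), just short of the threshold, while PHO5 read 573 and 682 against 590.3 and 659, with overlapping arrays. The vacuolar polyphosphate polymerase subunit gene VTC3 had a change of -0.22 ± 0.07 (adjusted p = 0.198), and VTC4 -0.045 ± 0.07 (adjusted p = 0.839). Of 10 genes of phosphate signalling and low-affinity transport, 0 passed. The activator PHO4 changed by 0.32 ± 0.13 (adjusted p = 0.336), the kinase inhibitor PHO81 by -0.11 ± 0.10 (adjusted p = 0.690), and the vacuolar exporter PHO91 by 0.20 ± 0.14 (adjusted p = 0.597).

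**Figure D2:**
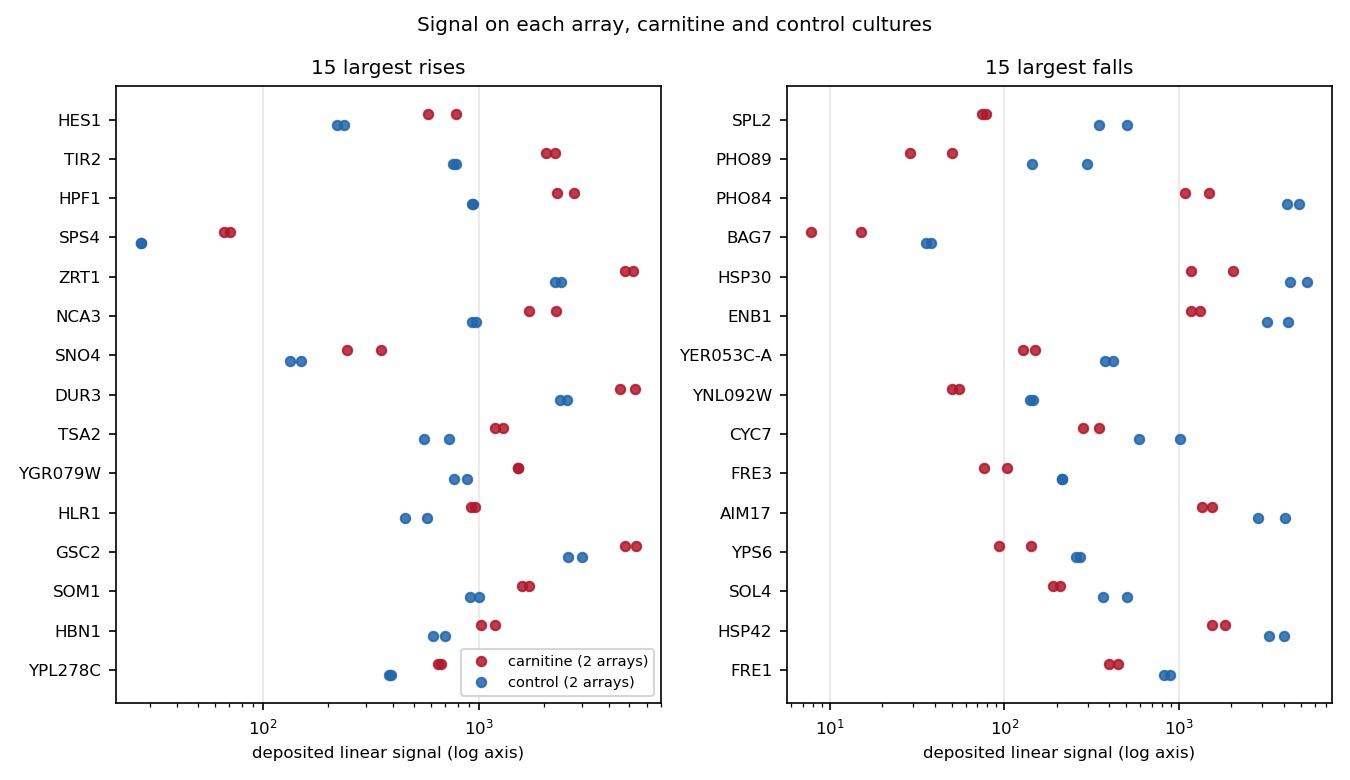
Deposited linear signal (log axis) on each of the 2 carnitine arrays (upper points of a line) and the 2 control arrays (lower points) for the 15 largest rises, left, and the 15 largest falls, right. The arrays of the groups do not overlap for any of the 30 genes, nor for any other called gene, so this adds nothing to the calls. SPL2 at 74.1 and 78.6 lies furthest below its control values of 349 and 503.

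Of 36 tested genes for iron acquisition, 5 fell, against 1.03% of all genes tested. ENB1 (YOL158C), a transporter of the bacterial siderophore enterobactin, read 1174 and 1323 in the carnitine cultures against 4227 and 3191 in the control cultures and changed by -1.56 ± 0.20 (adjusted p = 0.0175). FRE3 (YOR381W), a reductase of siderophore-bound iron, read 104 and 76.2 against 214 and 213 and changed by -1.26 ± 0.18 (adjusted p = 0.0228). FRE1 (YLR214W), the main surface reductase of ferric and cupric ions, read 448 and 399 against 886 and 827 and changed by -1.02 ± 0.10 (adjusted p = 0.00688). Each of the 3 was at least 2-fold lower with carnitine, and the replicates of each group lay close together compared with the gap between groups. TIS11 (YLR136C), also called CTH2, a protein that speeds decay of mRNAs of iron-using enzymes, read 310.1 and 337 against 719 and 564 and changed by -0.98 ± 0.13 (adjusted p = 0.0175). FET3 (YMR058W), the multicopper oxidase of the high-affinity iron system, read 17112 and 17157 against 23958 and 24507 and changed by -0.50 ± 0.07 (adjusted p = 0.0223). FRE1 kept its call whichever array was left out. FET3 passed in the fit to the 4 arrays alone but in none of the fits with 1 array left out (adjusted p up to 0.124). ENB1 and TIS11 passed in 1 of those 4 fits, without control replicate 2, with changes of -1.76 to -1.36 and -1.15 to -0.80, and FRE3 in 1, without carnitine replicate 1, with changes of -1.49 to -1.04.

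Across the whole iron lists the shift was in the same direction but small. Of 26 genes for reductive uptake and its regulation, 3 fell and none rose. In 17 of 26 (65.4%) both carnitine arrays lay below both control arrays, against 22.5% of all genes tested, and the median was -0.18, against -0.0011 for all genes; it became 0.0097 with hybridisation spike scaling. Of 10 siderophore genes, 2 fell and none rose, 8 had non-overlapping lower arrays, and the median was -0.46, and -0.66 to -0.27 over the other settings. The permease FTR1, which partners FET3, read 8904 and 8942 in the carnitine cultures against 11678 and 9113 in the control cultures and did not pass (adjusted p = 0.593). The wall mannoproteins that hold siderophores differed among themselves: FIT2 read 312 and 353 against 984 and 477 (adjusted p = 0.175), while the dim FIT1 read 29.1 and 37.3 against 16.0 and 17.9 (0.96 ± 0.22, adjusted p = 0.100).

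Other metal transporters gave single calls. ZRT1 (YGL255W), the high-affinity zinc transporter, rose to 4765 and 5178 in carnitine cultures, against 2262 and 2401 in control cultures (1.09 ± 0.12, adjusted p = 0.00894). It was the only one of 20 tested genes of the zinc regulon to pass, and the list's median was -0.023. Its regulator ZAP1 read 1064 and 1050.4 against 827 and 896 (0.30 ± 0.11, adjusted p = 0.283), and 2 other members, DPP1, a lipid phosphatase, and FET4, a low-affinity metal transporter, had changes of -0.22 ± 0.08 and -0.96 ± 0.31 without passing. The ZRT1 call did not hold without carnitine replicate 2 or control replicate 1 (adjusted p up to 0.0783, changes of 1.03 to 1.15). SMF1 (YOL122C), a manganese and divalent metal transporter, fell to 939.8 and 896 against 1374 and 1309 in control (-0.55 ± 0.09, adjusted p = 0.0327). CTR1, the high-affinity copper transporter, read 425 and 415 against 679.7 and 741, with -0.76 ± 0.14 just outside the threshold (adjusted p = 0.0545).

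Stress genes moved both ways. HSP30 (YCR021C), a plasma membrane protein that restrains the proton pump Pma1, read 1168 and 2041 in the carnitine cultures against 5434 and 4306 in the control cultures. HSP42 (YDR171W), a small heat-shock protein that gathers misfolded proteins, read 1553 and 1829 against 4025 and 3297. SOL4 (YGR248W), a 6-phosphogluconolactonase of the pentose phosphate pathway, read 208 and 191 against 505 and 369. These 3 fell, by 1.65 ± 0.23 (adjusted p = 0.0216), 1.11 ± 0.11 (adjusted p = 0.00698) and 1.12 ± 0.16 (adjusted p = 0.0228). PNC1, a nicotinamidase, fell by 0.39 ± 0.05 (adjusted p = 0.0175). In the other direction, YGP1, a secreted wall glycoprotein, rose by 0.74 ± 0.07 (adjusted p = 0.00688), as did 2 members of the Hsp31 family, HSP31, a methylglyoxalase, by 0.34 ± 0.06 (adjusted p = 0.0377) and SNO4 (YMR322C), which read 352 and 246 against 151 and 134, by 1.05 ± 0.18 (adjusted p = 0.0450). The probe set of SNO4 also matches another gene, so its value may be shared.

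Of 34 tested genes of the general stress response driven by Msn2 and Msn4, 3 rose and 4 fell. The shares over all genes tested were 0.47% and 1.03%. The list's median of -0.091 depended on single arrays and on the scaling: it was 0.18 without control replicate 1, 0.03 without carnitine replicate 1 and 0.0987 with hybridisation spike scaling, but -0.26 without control replicate 2. HSP30 lost its call without either control array (changes of -2.05 to -1.24, adjusted p up to 0.130), SOL4 without carnitine replicate 1, carnitine replicate 2 or control replicate 1 (-1.34 to -0.89, up to 0.129), and SNO4 without carnitine replicate 1 or either control array (0.79 to 1.31, up to 0.174). PNC1 and HSP31 lost theirs with any array left out. Among 32 chaperone genes HSP42 alone passed, and the mitochondrial disaggregase gene HSP78 and the Hsp90 co-chaperone gene AHA1 had changes of -0.57 ± 0.12 (adjusted p = 0.0752) and -0.21 ± 0.06 (adjusted p = 0.161).

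Reserve carbohydrate genes were lower as a list, though 1 passed. PGM2 (YMR105C), the main phosphoglucomutase, which links glucose 6-phosphate to glycogen and trehalose synthesis, read 2062 and 1823 in the carnitine cultures against 3099.9 and 3109 in the control cultures and fell by 0.68 ± 0.11 (adjusted p = 0.0306). It was the 1 call among 23 tested genes of trehalose and glycogen, of which 20 had negative changes. In 14 of 23 (60.9%) both carnitine arrays lay below both control arrays, against 22.5% of all genes, and in none above. The median was -0.31, and -0.33 to -0.12 over the other settings. The glycogen branching enzyme gene GLC3 read 4191 and 2951 in the carnitine cultures against 7161 and 5290.0 in the control cultures (-0.81 ± 0.21, adjusted p = 0.141), and ATH1, an acid trehalase, read 186 and 169.8 against 254 and 283 (-0.59 ± 0.11, adjusted p = 0.0540). PGM2 lost its call whichever array was left out (adjusted p up to 0.173). Hexose kinases did not pass: GLK1 had -0.35 ± 0.06 (adjusted p = 0.0518), EMI2 -0.58 ± 0.13 (adjusted p = 0.0884) and HXK2 -0.075 ± 0.04 (adjusted p = 0.415), and of 21 tested genes of hexose transport and glucose sensing 0 passed.

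Several genes of mitochondrial carbon use fell. CYC7 (YEL039C), the minor form of cytochrome c, read 350.4 and 283 in the carnitine cultures against 1015 and 589 in the control cultures and fell by 1.30 ± 0.23 (adjusted p = 0.0483). AIM17 (YHL021C), a mitochondrial protein of the family of γ-butyrobetaine dioxygenases, enzymes that in mammals make carnitine, read 1555 and 1359.9 against 4037 and 2828 and fell by 1.22 ± 0.16 (adjusted p = 0.0175). In both genes control replicate 1 was clearly the highest of the 4 arrays. CIT1, mitochondrial citrate synthase, read 12387 and 12169 against 16110.1 and 15609 and fell by 0.37 ± 0.04 (adjusted p = 0.0123). IDH1, a subunit of NAD-dependent isocitrate dehydrogenase, fell by 0.46 ± 0.07 (adjusted p = 0.0273), and its partner IDH2 read 15194 and 14304 against 19851 and 17647 without passing (-0.34 ± 0.07, adjusted p = 0.0629). Falls also came from NDE1, the external NADH dehydrogenase (-0.38 ± 0.06), MDH2, cytosolic malate dehydrogenase (-0.62 ± 0.10), PKP2, a kinase of pyruvate dehydrogenase (-0.71 ± 0.09), RGI1, a protein of respiratory growth (-0.70 ± 0.11), PDH1, of propionate metabolism (-0.91 ± 0.15), and FMP23, a mitochondrial protein (-0.41 ± 0.06), with adjusted p values of 0.0180 to 0.0313.

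CYC7 passed in 1 of the 4 fits with an array left out, without control replicate 2, and its change ran from -1.69 to -0.90. AIM17 passed only with both carnitine arrays kept (-1.47 to -0.96, adjusted p up to 0.105). CIT1, IDH1, NDE1, PKP2 and RGI1 passed in 1 of the 4 fits each, and MDH2, PDH1 and FMP23 in 0. Of 20 tested genes of the tricarboxylic acid cycle 2 fell, against 1.03% of all genes tested, and the list had a median of -0.042. Of 16 genes of cytochrome c and NADH oxidation 2 fell, with a median of -0.091, and HAP4, the activator of respiratory genes, read 6655 and 6581 in the carnitine cultures against 10677 and 8595 in the control cultures (-0.53 ± 0.14, adjusted p = 0.145). Both medians turned positive with hybridisation spike scaling, at 0.15 and 0.10. Of 34 genes of the respiratory chain and ATP synthase 0 passed, with a median of -0.035; the 3 with the largest test statistics were COX7 (-0.19 ± 0.07), ATP3 (0.11 ± 0.04) and ATP5 (0.14 ± 0.05). Among 22 genes of the glyoxylate cycle and acetyl-CoA only MDH2 passed, and the acetyl-CoA hydrolase gene ACH1 had -0.33 ± 0.11 (adjusted p = 0.212).

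None of the genes for carnitine transferases, its carrier or its permeases passed. The list of carnitine use, with 8 tested genes, also holds citrate synthases and gave 1 call, that of the citrate synthase gene CIT1. CAT2, the carnitine acetyltransferase of peroxisomes and mitochondria, read 154 and 199 in the carnitine cultures against 257 and 282 in the control cultures, lower in both, but did not pass (-0.62 ± 0.14, adjusted p = 0.100). YAT2, a second carnitine acetyltransferase, read 645 and 792 against 783 and 736, with overlapping arrays (-0.087 ± 0.12, adjusted p = 0.807). The third, YAT1, read 5.38 and 5.37 against 5.39 and 5.57, and the carnitine carrier gene CRC1 4.0 and 4.0 against 4.07 and 3.88, levels at or near those of probe sets for fission yeast, so a fall could not have been measured in either. AGP2, for the carnitine permease, read 279 and 248 against 455 and 272, where the second control array lay between the carnitine arrays (-0.42 ± 0.30, adjusted p = 0.585). HNM1, a choline permease that also takes carnitine, read 22509 and 22469 against 21318 and 22185 (0.048 ± 0.13, adjusted p = 0.911), and CIT2, peroxisomal citrate synthase, 10515 and 9678 against 10740.3 and 13450.5 (-0.25 ± 0.11, adjusted p = 0.358). The list's median was -0.17 and became 0.02 with hybridisation spike scaling. Among neighbours in lipid metabolism, 0 of 23 genes of choline and phospholipid synthesis passed (CPT1 -0.26 ± 0.06, OPI3 -0.17 ± 0.07, CHO2 -0.11 ± 0.05), and 0 of 23 of β-oxidation and the peroxisome (FAA1 -0.25 ± 0.09, PXA2 -0.87 ± 0.34, DCI1 -0.47 ± 0.21).

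The remaining falls were of mixed function. BAG7 (YOR134W), a GTPase-activating protein for Rho1, was dim, at 7.86 and 15.2 in the carnitine cultures against 35.7 and 37.8 in the control cultures, and fell by 1.75 ± 0.31 (adjusted p = 0.0461). YPS6 (YIR039C), a wall-anchored aspartic protease, read 143 and 93.5 against 273 and 256 and fell by 1.19 ± 0.19 (adjusted p = 0.0327). YNL092W (YNL092W), a methyltransferase-like protein, read 54.9 and 50.1 against 141 and 146 and fell by 1.45 ± 0.11 (adjusted p = 0.00432). YNL092W had the tightest arrays of the 3 and passed in all 11 alternative fits, whereas BAG7 and YPS6 passed in 1 of the 4 fits with an array left out, with changes of -2.23 to -1.28 and -1.50 to -0.89. An offset of 50 added to all signals, which shrinks changes of dim genes, ended 23 of the 80 calls. Among these were BAG7 (-0.50), PHO89 (-1.54), ATO2 (-0.53) and SHC1 (-0.14), but also bright genes whose change hardly moved, such as MDH2 (-0.61). The offset reduced the changes of YNL092W to -0.92, IRC10 to -0.19, AVO2 to -0.54 and the rise of SPS4, described below, to 0.61, all 4 still called. YER053C-A, a small open reading frame next to PIC2, read 128 and 150.1 against 379 and 418 and fell by 1.52 ± 0.17 (adjusted p = 0.00992), a call lost without carnitine replicate 1 or control replicate 1 (adjusted p up to 0.0615).

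Further falls included transporters and membrane proteins: TPO4, a polyamine exporter (-0.71 ± 0.07, adjusted p = 0.00698), ATO2, a member of a family of acetate and ammonium transporters (-0.98 ± 0.17), PNS1, a relative of choline transporters (-0.46 ± 0.06), BXI1, of the Bax inhibitor family (-0.46 ± 0.08), and FRT2, a tail-anchored protein of the endoplasmic reticulum (-0.88 ± 0.12). Regulators that fell were SDP1, a MAP kinase phosphatase (-0.99 ± 0.18), AVO2, a subunit of TOR complex 2 (-0.85 ± 0.15), COM2, a transcription factor (-0.68 ± 0.12), PPM1, which methylates protein phosphatase 2A (-0.49 ± 0.07), and SDS22, a regulator of protein phosphatase 1 (-0.34 ± 0.06). Genes known from meiosis and sporulation that fell were IME2 (-0.81 ± 0.13) and RIM11 (-0.37 ± 0.06), both kinases, and the dim SHC1, an activator of chitin synthesis, at 7.62 and 7.60 in the carnitine cultures against 13.1 and 13.6 in the control cultures (-0.81 ± 0.11). The metabolic genes BAT2, a branched-chain aminotransferase (-0.36 ± 0.04, adjusted p = 0.0123), XKS1, xylulokinase (-0.60 ± 0.08), YDC1, a ceramidase (-0.42 ± 0.06), and IMA3, an isomaltase whose probe set matches another gene too (-0.76 ± 0.14), also fell. So did JID1, an Hsp40 protein (-0.76 ± 0.10), GGA1, a Golgi adaptor (-0.57 ± 0.06), YKL091C, a relative of Sec14 (-0.48 ± 0.08), and IRC10 (-0.92 ± 0.11), YLR297W (-0.98 ± 0.14), YBL086C (-0.75 ± 0.13), YHR140W (-0.61 ± 0.10), YLR177W (-0.51 ± 0.09) and YBR085C-A (-0.51 ± 0.09). None of these genes kept its call in all fits with an array left out, and TPO4, GGA1 and IRC10 lost it without control replicate 1 alone (adjusted p = 0.0502, 0.0572 and 0.0586).

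Several genes of the cell wall were among the rises. TIR2 (YOR010C), a mannoprotein of the cold-shock and anaerobic family, read 2062 and 2263 in the carnitine cultures against 763 and 785 in the control cultures. HPF1 (YOL155C), a heavily glycosylated mannoprotein, read 2765 and 2315 against 941 and 929. NCA3 (YJL116C), of the SUN family of wall proteins, read 2296 and 1718 against 973 and 932. All 3 were more than 2-fold higher with carnitine, and the control replicates of each lay within a few percent of one another. The rises were 1.48 ± 0.11 (adjusted p = 0.00402), 1.44 ± 0.14 (adjusted p = 0.00728) and 1.06 ± 0.15 (adjusted p = 0.0216). GSC2 (YGR032W), the alternate catalytic subunit of β-glucan synthase, read 5381 and 4791 against 3018 and 2594 and rose by 0.86 ± 0.09 (adjusted p = 0.00992). YGP1, named above, read 20532 and 20390.0 against 13100.1 and 11398. TIR2 and YGP1 passed in all 11 alternative fits. Among the fits with an array left out, HPF1 lost its call without control replicate 1 (adjusted p = 0.0548) and GSC2 without carnitine replicate 1 (adjusted p = 0.0615). NCA3 kept its call only without carnitine replicate 2 (0.85 to 1.27).

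Of 33 tested genes of wall mannoproteins and their kin, 4 rose, against 0.47% of all genes tested, none fell and 29 did not pass. In 20 of 33 (60.6%) both carnitine arrays lay above both control arrays, against 23.4% of all genes tested. The median was 0.14, and 0.11 to 0.33 over the other settings. Members differed: TIR4 read 702 and 723 in the carnitine cultures against 431 and 407 in the control cultures (adjusted p = 0.146), but TIR1 read 3137 and 3127 against 3239 and 3472, and SPI1 was lower, at 6006 and 5755 against 7852 and 6705 (adjusted p = 0.155). The abundant wall protein gene CCW12 read 56782 and 56952 against 57622 and 55269, with overlapping arrays.

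HES1 (YOR237W), one of the oxysterol-binding proteins that move sterols between membranes, had the largest rise among the called genes. It rose to 784 and 584 in the carnitine cultures, against 222 and 239 in the control cultures (1.56 ± 0.28, adjusted p = 0.0461). Its 2 carnitine cultures differed from each other more than its control cultures did, and the call was lost whichever array was left out (changes of 1.34 to 1.77, adjusted p up to 0.213). The other 6 genes of the oxysterol-binding family did not pass, with OSH2 at -0.18 ± 0.08 and SWH1 at 0.16 ± 0.10. UPC2, a transcription factor that switches on sterol synthesis and uptake and the anaerobic genes, read 1616 and 1571 against 966 and 1006 and rose by 0.69 ± 0.10 (adjusted p = 0.0216), also without a call once any array was left out. It was the 1 rise among 34 tested genes of sterol synthesis and anaerobic growth. Of these, 12 (35.3%) had higher, non-overlapping arrays, against 23.4% of all genes tested, and the median was 0.032. ERG1, squalene epoxidase, had 0.20 ± 0.06 (adjusted p = 0.208) and ERG4, the last enzyme of ergosterol synthesis, 0.11 ± 0.04 (adjusted p = 0.266).

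Some permeases for nitrogen sources rose, 5 in all. DUR3 (YHL016C), the urea and polyamine transporter, read 5287 and 4506 in the carnitine cultures against 2392 and 2563 in the control cultures and rose by 0.98 ± 0.10 (adjusted p = 0.00698). PTR2, the peptide transporter, read 15671 and 15323 against 8959 and 9750.2 and rose by 0.73 ± 0.09 (adjusted p = 0.0175). DAL5, the allantoate permease, read 1243 and 1118 against 701 and 748 and rose by 0.70 ± 0.11 (adjusted p = 0.0273). All 4 arrays of each gene sorted by group, as they did for every called gene. GAP1, the general amino acid permease, rose by 0.41 ± 0.06 (adjusted p = 0.0216), and CAN1, the arginine permease, by 0.30 ± 0.05 (adjusted p = 0.0450), both from high control signals of 10365 and 10478 and 11802 and 11969.5. DUR3 kept its call except without control replicate 1 (adjusted p 0.0502), PTR2 passed only without control replicate 2, and DAL5, GAP1 and CAN1 in none of the fits with an array left out.

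Of 43 tested genes of polyamine, urea and nitrogen catabolism 3 rose, against 0.47% of all genes tested, and 1 fell, TPO4, against 1.03%. In this list 21 of 43 (48.8%) had higher, non-overlapping arrays, against 23.4% of all genes tested, and the median was 0.082. The polyamine exporter TPO4, at 5229 and 5070.2 in the carnitine cultures against 8656 and 8232 in the control cultures, thus moved opposite to the importer DUR3. Of 25 amino acid permeases 2 rose, with a median of 0.043, and AGP1, a broad amino acid permease, had 0.19 ± 0.06 (adjusted p = 0.187). Biosynthetic genes of arginine, lysine and the branched-chain amino acids gave 1 fall among 33, BAT2, with ARG3 at -0.71 ± 0.17 (adjusted p = 0.110) and LYS20 at -0.26 ± 0.08 (adjusted p = 0.203). Of 36 genes of sulfate and methionine 0 passed (MET2 0.24 ± 0.08, STR3 -0.41 ± 0.18, MMP1 -0.32 ± 0.13), and of 39 of purines, one-carbon units and vitamins 0 passed (BAS1 0.26 ± 0.09, THI4 0.69 ± 0.15, THI7 0.16 ± 0.09).

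The other rises were scattered. SPS4 (YOR313C), a gene of sporulating cells that was dim here, read 66.1 and 70.9 in the carnitine cultures against 27.2 and 27.5 in the control cultures and rose by 1.32 ± 0.10 (adjusted p = 0.00402), with replicates that lay close together in both groups. TSA2 (YDR453C), a cytosolic peroxiredoxin that removes peroxides, read 1299 and 1195 against 559 and 731 and rose by 0.96 ± 0.13 (adjusted p = 0.0209). HBN1 (YCL026C-B), a nitroreductase-like protein, read 1191 and 1025 against 698 and 613 and rose by 0.76 ± 0.10 (adjusted p = 0.0199). SPS4 passed in all fits with an array left out, whereas TSA2 passed only without control replicate 2 and HBN1 only without carnitine replicate 2. TSA2 was the 1 rise among 38 genes of peroxiredoxins, thioredoxins and glutathione; GPX1, a glutathione peroxidase, read 688 and 527 against 918 and 1003, lower in both carnitine cultures (-0.67 ± 0.13, adjusted p = 0.0592), and GTT2, a glutathione transferase, had 0.44 ± 0.12 (adjusted p = 0.146).

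HLR1 (YDR528W), a paralog of the cell wall gene LRE1, read 968 and 927 in the carnitine cultures against 459 and 577 in the control cultures (0.88 ± 0.16, adjusted p = 0.0476). SOM1 (YEL059C-A), a subunit of the mitochondrial inner membrane peptidase, read 1594 and 1711 against 909 and 1010.1 (0.79 ± 0.10, adjusted p = 0.0161). YGR079W, given by its systematic name, read 1518 and 1527 against 771 and 885 (0.88 ± 0.11, adjusted p = 0.0144). In HLR1 and YGR079W the carnitine replicates lay closer together than those of control. YPL278C read 649.8 and 668 against 395 and 385 (0.76 ± 0.13, adjusted p = 0.0379) on a probe set that matches another gene too, and CWC2, a spliceosome protein, rose by 0.73 ± 0.13 (adjusted p = 0.0476). HLR1, YPL278C and CWC2 kept their calls in none of the fits with an array left out, and SOM1 and YGR079W only without control replicate 2.

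Ribosome biogenesis genes were higher almost without exception, by small amounts. Of 133 tested genes, 131 of 133 had a positive change, against 49.3% of all genes. In 111 of 133 (83.5%) both carnitine arrays lay above both control arrays, against 23.4% of all genes, and in 0 below. The median was 0.17, and 0.14 to 0.36 over the other settings. Only LCP5 and ENP2 passed, both nucleolar proteins of the small ribosomal subunit's assembly, at 4588 and 5142 in the carnitine cultures against 3395 and 3559 in the control cultures (0.48 ± 0.07, adjusted p = 0.0273) and 16594 and 16707 against 13938 and 14100.1 (0.25 ± 0.04, adjusted p = 0.0476), and both calls were lost whichever array was left out. RRP9, of the U3 complex, lay just outside the threshold, with 0.31 ± 0.06 (adjusted p = 0.0540). Of 38 genes of RNA polymerases I and III 0 passed, 21 of 38 (55.3%) had higher, non-overlapping arrays, and the median was 0.10 (RRN6 0.31 ± 0.12, RRN11 0.30 ± 0.13, RPA49 0.14 ± 0.05).

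Cell-cycle genes showed a like pattern without a single call. Of 41 tested genes of G1/S and Start, 28 of 41 (68.3%) had higher, non-overlapping arrays, against 23.4% of all genes tested. Their median was 0.19 (0.16 to 0.38 over the other settings). PCL1, a G1 cyclin, read 1207 and 915 in the carnitine cultures against 582 and 686 in the control cultures (0.73 ± 0.19, adjusted p = 0.133), CLB5, an S-phase cyclin, 1082 and 1077 against 749.7 and 845 (0.44 ± 0.10, adjusted p = 0.0999), and the dim WHI5, a repressor of Start, 12.3 and 10.3 against 16.6 and 21.5 (-0.75 ± 0.14, adjusted p = 0.0566). In 22 genes of daughter separation and early G1, 14 of 22 had higher, non-overlapping arrays (median 0.15; SCW11 0.31 ± 0.07, BUD9 0.30 ± 0.09, DSE3 0.23 ± 0.06), and in 28 of G2/M and the MCM complex, 14 of 28 (median 0.12; CDC6 0.47 ± 0.21, CLB3 0.19 ± 0.09, MCM2 0.18 ± 0.09). The counts of 14 of 22 (63.6%) and 14 of 28 (50%) also compare with 23.4% of all genes tested. Histone genes stayed near zero, with a median of -0.012 over 9 (HTA2 -0.041 ± 0.06, HTB1 0.037 ± 0.09, HHO1 0.037 ± 0.10). In extracts of whole cultures, a larger share of cells in a cell-cycle phase and more transcript per cell cannot be told apart.

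In the lists not yet named, 0 genes passed. Autophagy genes had a median of -0.13 over 26, and 0.057 with hybridisation spike scaling (ATG29 -0.75 ± 0.19, ATG7 -0.47 ± 0.16, ATG3 -0.38 ± 0.10). In 13 of 26 both carnitine arrays lay below both control arrays, against 22.5% of all genes tested. Genes of pheromone response and α identity had 0.0073 over 38 (STE18 -0.34 ± 0.13, PRM5 -0.20 ± 0.09, SAG1 -0.19 ± 0.08).

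**Figure D3:**
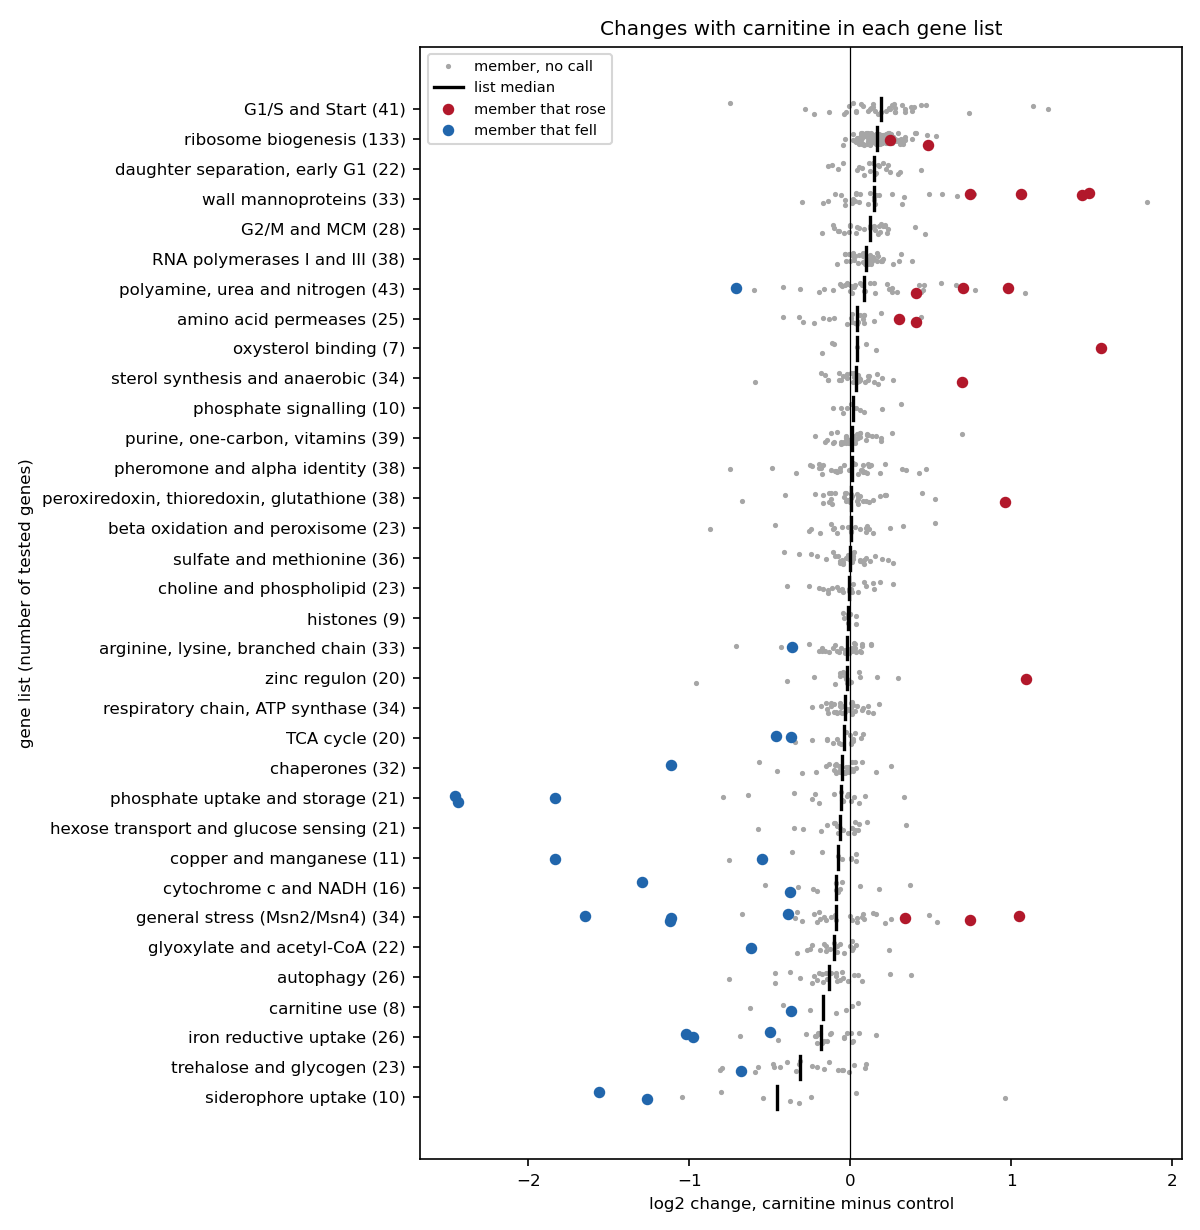
Log2 change, carnitine minus control, of each tested member of 34 gene lists (one line per list, number of tested genes in brackets), with called members as large points and the list median as a bar. The siderophore list has the lowest median, -0.46, and the G1/S list the highest, 0.19, while single called genes such as SPL2 and HES1 lie far from the medians of their lists.

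The cultures with peroxide also show carnitine against its absence, on arrays that entered the choice of the 80 genes through the shared estimate of spread but not through the change itself. There, 1892 of the 5324 genes (35.5%) passed for carnitine with peroxide against peroxide alone, 1002 up (18.8%) and 890 down (16.7%). A call there is thus common. Of the 80 genes, 57 (71.2%) had a change of the same sign there, against 3024 (56.8%) of all genes tested. In that direction 34 (42.5%) passed, 14 of the 25 rises and 20 of the 55 falls, against 1165 (21.9%) of all genes. Genes with a small shared spread pass more readily in both conditions, so shares of calls with peroxide are not on an equal footing. In the opposite direction 8 (10%) passed, against 727 (13.7%) of all genes. The median of the 25 rises was 0.79 without peroxide and 0.33 with it, and that of the 55 falls was -0.75 without and -0.12 with it. The difference between the carnitine effects without and with peroxide was tested gene by gene and passed for 42 of the 80, 11 rises and 31 falls, against 683 of all genes (12.8%). It was positive for 10 of these 42, against 272 of all genes (5.11%), and negative for 32, against 411 (7.72%). With poly-A spike scaling the median of all genes with peroxide moved to 0.60, and 63 of the 80 genes then passed with peroxide, 57 up and 6 down, so directions in the peroxide pair are relative to the overall signal. The arrays that selected the 80 enter this test of the difference, so the 2 shares are not on an equal footing. That count fell to 5 without carnitine with peroxide replicate 1, to 6 without carnitine replicate 2 or control replicate 1, to 8 without carnitine replicate 1, to 20 without carnitine with peroxide replicate 2, to 21 without peroxide replicate 2 and to 26 without control replicate 2.

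For 29 genes, 11 rises and 18 falls, carnitine passed in the same direction in both conditions and the difference did not pass. Of all genes tested, 959 (18%) passed with peroxide with the sign they had without it and had no call for the difference. Here too the shared spread puts the 2 counts on an unequal footing. SPL2 read 19.4 and 16.3 in the cultures given carnitine with peroxide against 116 and 79.9 in those given peroxide, a change of -2.43 ± 0.23 (adjusted p = 0.00204), and its difference between conditions was -0.022 ± 0.33. PHO84 read 1102 and 979 against 3674 and 3080.0, a change of -1.70 ± 0.17 (adjusted p = 0.00204; difference -0.14 ± 0.24). HES1 read 40.5 and 23.2 against 9.07 and 12.0, a rise of 1.55 ± 0.28 (adjusted p = 0.00634; difference 0.0007 ± 0.39), although peroxide cultures had far less of it than control cultures did. In all 3 the size with peroxide was close to that without. HPF1 rose by 1.28 ± 0.14, NCA3 by 1.12 ± 0.15, DUR3 by 0.83 ± 0.10 and ZRT1 by 0.68 ± 0.12 with peroxide present. BAG7, dim without peroxide, was well above the floor with it, at 273 and 332 against 911 and 1327, and fell by 1.87 ± 0.31 (adjusted p = 0.00511). Among the mitochondrial genes CIT1 (-0.24 ± 0.04), IDH1 (-0.46 ± 0.07), PKP2 (-0.89 ± 0.09), NDE1 (-0.18 ± 0.06) and FMP23 (-0.34 ± 0.06) fell in both conditions, as did the polyamine exporter TPO4 (-0.96 ± 0.07), the kinase gene IME2 (-0.80 ± 0.13) and SMF1 (-0.47 ± 0.09).

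Other genes responded to carnitine differently once peroxide was present. PHO89 read 61.1 and 42.0 in the cultures given carnitine with peroxide against 53.2 and 56.3 in those given peroxide, a change of -0.11 ± 0.38, and its difference between conditions passed (-2.33 ± 0.54, adjusted p = 0.0365). ENB1 read 11881 and 9557 against 8774 and 6142, a change of 0.54 ± 0.20, opposite in sign to that without peroxide (difference -2.10 ± 0.28, adjusted p = 0.0187). The differences of FRE1 (-1.15 ± 0.13), TIS11 (-1.30 ± 0.18), FRE3 (-1.11 ± 0.26) and FET3 (-0.87 ± 0.10) passed as well, so all 5 called iron genes differed between the conditions. SPS4 was near the floor with peroxide, at 4.38 and 4.15 against 4.59 and 5.15, and differed by 1.51 ± 0.14 (adjusted p = 0.00891). The stress genes HSP30 (-1.48 ± 0.33), HSP42 (-0.85 ± 0.16) and SOL4 (-1.67 ± 0.23) also differed, and HSP30 read 48063 and 49336 with carnitine and peroxide against 54840.3 and 54495 with peroxide. TSA2 read 49793 and 53226 against 49475 and 42515 with peroxide, and HBN1 38921 and 40544 against 36732 and 32523, signals many times those without peroxide and in the upper part of the range of the arrays. Their differences were 0.80 ± 0.19 and 0.55 ± 0.14.

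The 8 genes that passed in opposite directions all fell with carnitine alone and rose with carnitine and peroxide. ATO2 read 420.2 and 465 in the cultures given carnitine with peroxide against 178 and 159.8 in those given peroxide, a rise of 1.39 ± 0.17 (adjusted p = 0.00289). PGM2 read 17786 and 18173 against 11076 and 8884, a rise of 0.86 ± 0.11 (adjusted p = 0.00291). SHC1 rose by 0.91 ± 0.11, PNS1 by 0.69 ± 0.06, SOL4 by 0.55 ± 0.16, YHR140W by 0.43 ± 0.10, FET3 by 0.37 ± 0.07 and YLR177W by 0.27 ± 0.09. Among genes that kept their direction and whose difference passed, PTR2, GAP1 and PDH1 changed more with peroxide: PTR2 rose by 1.47 ± 0.09 and GAP1 by 0.92 ± 0.06, with differences of -0.74 ± 0.13 (adjusted p = 0.0234) and -0.52 ± 0.08 (adjusted p = 0.0197), and PDH1 fell by 1.75 ± 0.15 (adjusted p = 0.0421 for the difference). Some list medians also changed sign. Siderophore genes had -0.46 without and 0.58 with peroxide, with the difference called for 5 of 10. Trehalose and glycogen genes had -0.31 without and 0.28 with it, with the difference called for 11 of 23. Of all genes tested, the difference was called for 12.8%, and the median with peroxide was 0.0078. Signs with peroxide are relative to the overall signal, as said above. Other medians kept their sign: ribosome biogenesis genes had 0.17 without and 0.11 with peroxide, where 97 of 133 were positive.

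**Figure D4:**
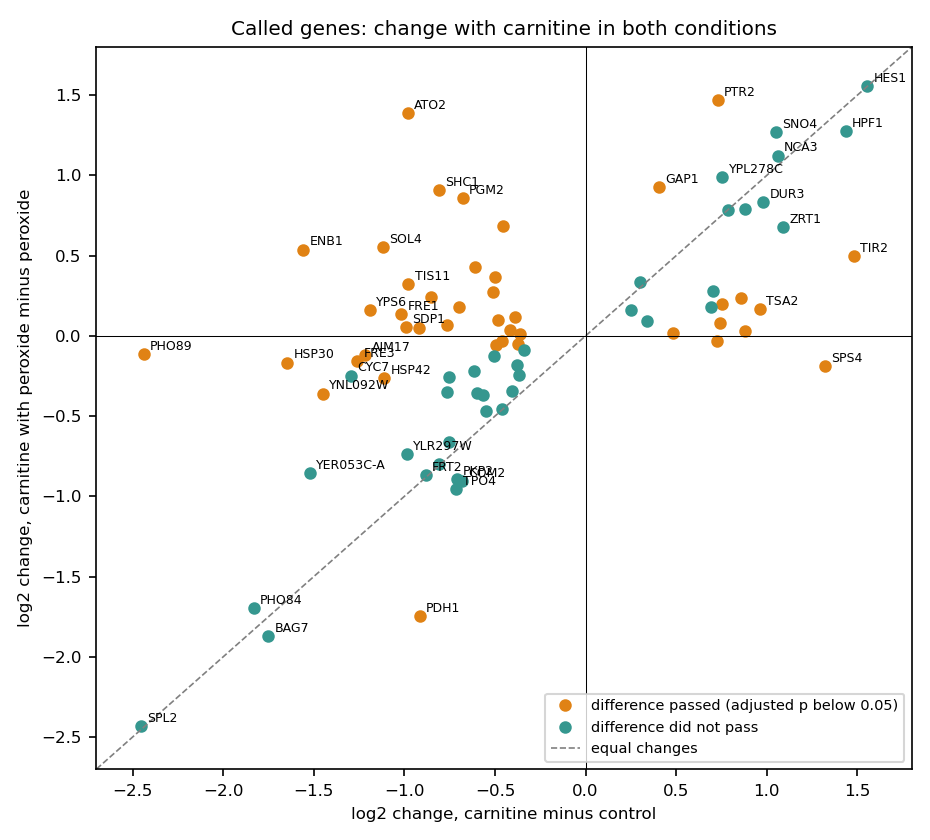
Log2 change with carnitine for the 80 genes, carnitine minus control on the x axis and carnitine with peroxide minus peroxide on the y axis, with genes whose difference passed (42) and did not pass (38) in separate colours. SPL2, PHO84, BAG7 and HES1 lie on the dashed line of equal changes, PHO89 and HSP30 near zero on the y axis, and ATO2, SHC1 and PGM2 in the quadrant of opposite signs.

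The 80 genes were spread over 15 of the 16 chromosomes, with 12 (15%) on XV, which carries 9.35% of the genes tested, 9 (11.25%) on V, which carries 4.75%, and 0 on VI. Only 2 pairs were direct neighbours, PIC2 with YER053C-A and CIT1 with ATO2, and both members of each fell; neither pair overlaps in the RefSeq annotation. Control signals of the genes that rose had a median of 960, those of the genes that fell 2620, and those of all tested genes 3069. Called genes were dim about as often as all genes: 1 of 25 rises (4%) and 4 of 55 falls (7.27%) had a mean control signal below 100, against 6.71% of all genes.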

How the data were processed

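Total RNA of 8 yeast cultures was labelled with biotin and hybridised to Affymetrix yeast arrays. The deposited values are linear intensity, 1 signal per probe set and array, made by the authors with GCOS per the submitters' processing notes. How GCOS corrected the background, summarised probes and scaled arrays: not given in the sources used here. Of 10928 probe sets, 5498 carried exactly 1 S. cerevisiae gene in the platform annotation, 1746 were for fission yeast, 1 listed several genes and 3683 none; 12 symbols were updated through the gene identifier. For genes with several probe sets the brightest was used, which left out 49. The floor was 2.05 on the log2 scale (4.14 linear), and 125 genes at or below it were dropped; 109 tested genes lie on probe sets that also match another gene. Signals of deposited arrays were used without further scaling.

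Log2 signals of all 8 arrays entered a linear model (R 4.3.3, limma 3.58.1; 1 mean per group, eBayes with a trend; 4 residual and 3.44 prior degrees of freedom). The contrasts were carnitine minus control, carnitine with peroxide minus peroxide, and their difference, each adjusted by Benjamini-Hochberg over 5324 genes. On simulated data, 89% of 1.5-fold and 98% of 2-fold changes were recovered for carnitine minus control, with 11 false among 198 calls. The simulated noise was normal, with each gene's variance averaged with the median one, so the noisiest genes were less noisy than in the data. These shares therefore do not give the recovery on the real arrays, where 20 of 42 genes with a change of 2-fold or more did not pass. Named are all called genes, with every array's signal for the 15 largest rises and falls, up to 3 members of each of 34 gene lists by moderated t, and all genes of carnitine use. These genes, the lists and the tests were chosen with earlier results of these data known, and other genes set beside them were picked from the lists after their values were seen. With 2 cultures per group, precision is limited by the number of arrays. Alternatives were 3 scalings, 2 filters, no trend, an offset of 50, the 4 arrays alone, a replicate block, each array left out, a 2-fold minimum and all probe sets. Promoter sequences and motifs were not analysed here. Plots were made in Python 3.11.15 (matplotlib 3.10.9).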

Additional observations from a re-analysis of the deposited data

Results flagged for a closer look

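The carnitine effect without peroxide differed from that with peroxide by a test of the difference itself (limma interaction, adjusted p below 0.05) for the following named genes, given as the log2 effect without peroxide minus that with it. The arrays that gave the calls without peroxide also enter this test. Among genes that fell with carnitine alone, the difference was of 1 log2 unit or more for ATO2 -2.37, PHO89 -2.33, ENB1 -2.10, SHC1 -1.72, SOL4 -1.67, PGM2 -1.54, HSP30 -1.48, YPS6 -1.35, TIS11 -1.30, FRE1 -1.15, PNS1 -1.14, FRE3 -1.11, AIM17 -1.10, AVO2 -1.09, YNL092W -1.09, SDP1 -1.05 and YHR140W -1.04. It was smaller for IRC10 -0.97, RGI1 -0.88, FET3 -0.87, HSP42 -0.85, JID1 -0.83, YLR177W -0.78, YKL091C -0.58, PNC1 -0.51, YDC1 -0.45, PPM1 -0.44, BXI1 -0.43, BAT2 -0.37 and RIM11 -0.33, and of the opposite sign for PDH1, at 0.83. Among genes that rose with carnitine alone, the differences were SPS4 1.51, TIR2 0.99, HLR1 0.85, TSA2 0.80, CWC2 0.76, YGP1 0.66, GSC2 0.62, HBN1 0.55, LCP5 0.46, GAP1 -0.52 and PTR2 -0.74. SPS4 lay near the floor with peroxide, so its change there could hardly be measured.

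Named genes that did not pass with carnitine alone also differed between the conditions: GPX1 -1.10, ATH1 -0.92, GLK1 -0.64, AHA1 -0.60, CPT1 -0.57, OSH2 -0.46, DSE3 0.45, SAG1 0.61, MET2 0.71 and YAT2 0.83. CRC1, for the mitochondrial carnitine carrier, had a value of -1.35, which is not a comparison of measured effects: without peroxide all 4 arrays lay below the floor, and the gene was tested only because of its level with peroxide. It read 11.2 and 11.6 in the cultures given carnitine with peroxide against 4.72 and 4.21 in those given peroxide, and 4.0 and 4.0 in the carnitine cultures against 4.07 and 3.88 in the control cultures. YAT2, for a carnitine acetyltransferase, read 1412 and 1347 with carnitine and peroxide against 2557 and 2639.9 with peroxide.

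A signal outside the named genes came from a probe set with no gene listed and rose by 1.68 ± 0.13 with carnitine (limma over the 416 such probe sets above the floor, adjusted p = 0.00495). It read 1564 and 1443 in the carnitine cultures against 461 and 479 in the control cultures.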

How the results depend on the processing

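With 2 arrays per group, 72 of the 80 calls were lost in at least 1 fit with an array left out. The count was 41 with no filter on dim genes, 15 on the 4 carnitine and control arrays alone, 22 with a 2-fold minimum, and 17 to 53 with 1 array left out. It lay between 59 and 116 in the other settings. With only genes above the 40th percentile 84 passed, 21 up and 63 down, of which 41 were among the 80. The labels do not say whether same-numbered cultures were paired, and the values do not settle it. Deviations of same-numbered arrays from their group means correlated at -0.11 between control and carnitine, and at 0.0384 to 0.132 between other groups. With replicate number as a block 106 genes passed, 27 up and 79 down, and 74 of the 80 stayed called, while the crossed pairing of the carnitine arrays, chosen after seeing the data, gave 61 calls. Quantile normalization kept 73, poly-A scaling 53, no trend 53, the offset 57 and hybridisation scaling 43 of the 80. The fit on 4 arrays and those without 1 array use fewer arrays, and the 2-fold minimum asks for a larger change; the cause of the other changes was not tested.

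Of the 80, 42 passed with peroxide, 19 with the 40th percentile filter, which leaves dimmer genes untested, 10 with a 2-fold minimum and 31 to 39 with 1 array left out. The difference passed for 42, for 25 with the 40th percentile filter, 18 with a 2-fold minimum and 5 to 34 with 1 array left out; with the replicate block the counts were 43 and 42. For carnitine minus control, none of the 80 changed sign in any setting in which it was fitted, with the limit given above. Sign changes of the effect with peroxide and of the difference were not counted. Among named genes that did not pass, signs turned with hybridisation scaling for CHO2 (0.0753), COX7 (0.0044), HTA2 (0.149), HXK2 (0.115), OPI3 (0.0178), OSH2 (0.0117), PHO81 (0.0830), YAT1 (0.162) and YAT2 (0.103), with poly-A scaling for HTA2 (0.0374), HXK2 (0.0035) and YAT1 (0.0507), and with quantile normalization for YAT1 (0.0061). With 1 array left out, HTB1 ranged from -0.0037 to 0.0777 and YAT2 from -0.236 to 0.0610, both turning without carnitine replicate 1, and CRC1 from -0.0261 to 0.0444, turning without control replicate 2. Of 34 list medians, 16 changed sign with hybridisation, 10 with poly-A and 2 with quantile scaling, 1 with the offset, and 4 to 6 with 1 array left out.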

Other observations

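Of 416 probe sets above the floor with no gene listed, fitted separately after the data had been seen, 1 rose with carnitine and 8 fell (limma, adjusted p below 0.05). The falls ran from 0.32 to 1.16. The deepest was to 165 and 152 in the carnitine cultures, against 332 and 376 in the control cultures (adjusted p = 0.0296). With peroxide it read 269 and 283 in the cultures given carnitine too, against 515 and 642 in those given peroxide alone, so it was lower with carnitine in both conditions.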
